A study of Mus musculus with 2 samples.

Results

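The 34 mouse genes described here encode the enzymes and transporters of glycolysis and the best known genes of the hypoxia response. They were chosen by symbol and measured in single cells from aneurysmal abdominal aorta. The symbols matched 35 of the 31253 features counted, because Aldoa has 2 identifiers, and the second of these, next to the first on chromosome 7, was at 0 UMIs (unique molecular identifiers, each standing for 1 captured transcript) in both libraries. Both groups carried an abdominal aortic aneurysm induced with PPE, in the usual form of the model an elastase that degrades the elastic fibres of the vessel wall. The WT group consisted of C57BL/6J mice and the Gsdme-KO group of mice with a global deletion of Gsdme, the gene of a pore-forming gasdermin protein. Each group was represented by 1 library prepared on the BD Rhapsody system from digested abdominal aorta. The number of animals pooled, their age and the time after PPE are not given in the labels, and there was no aorta without an aneurysm. With 1 library per group the difference between genotypes and the difference between these libraries cannot be told apart, no test was possible, and every interval below covers counting error only.

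Glycolysis splits glucose into pyruvate in the cytosol and yields ATP without oxygen. Lactate dehydrogenase then reduces pyruvate to lactate, which leaves the cell through monocarboxylate transporters. When oxygen is short, prolyl hydroxylases no longer mark the alpha subunits of the hypoxia-inducible factors (HIF) for degradation, and the stabilised factors raise transcription of glycolytic genes, of genes for mitochondrial clearance and of secreted vasoactive factors. Inflammatory macrophages and neutrophils are known for high glycolytic rates also in the presence of oxygen, and poor oxygen supply has been described in the wall of aortic aneurysms.

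The WT library held 7736 barcodes with 38988898 UMIs and the Gsdme-KO library 9034 barcodes with 52532964 UMIs, of which 7619 and 8784 cells were kept. The median cell had 3835 UMIs in the WT library and 4062 in the Gsdme-KO library, and 73 barcodes were present in both libraries, 0.944% and 0.808% of each. Clustering without the genes described here gave 26 clusters, from which 14 groups with at least 50 cells in each library were compared. Clusters 1, 8, 10, 12 and 20, shallow and unnamed, also had over 50 cells in each library but were not compared on their own, and they enter only the values over all cells and at equal cluster shares. Gsdme itself, the check of the labels, stood at 5.53 CPM (the summed UMIs of a gene scaled to a common library total) in the WT library from 215 UMIs. It stood at 2.55 CPM in the library labelled Gsdme-KO from 133 UMIs, a ratio of 0.461 (95% interval 0.368 to 0.575). In fibroblast-like cells Gsdme was at 3.62 and 1.01 CPM, and in monocyte-like cells it was higher in the Gsdme-KO library, at 2.50 and 8.33 CPM from 4 and 20 UMIs. In neutrophil-like cells, where Gsdme was highest, it was at 20.6 and 10.8 CPM from 42 and 22 UMIs. Of their clusters, cluster 5 had 16.8 and 23.1 CPM from 5 and 9 UMIs, and cluster 6 had 21.3 and 7.86 CPM. Which part of Gsdme is deleted is not given, and the source of the UMIs that remain in the Gsdme-KO library was not tested.

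The groups of cells differed in size between the libraries, which touches every value taken over all cells. Fibroblast-like cells numbered 952 in the WT and 1523 in the Gsdme-KO library and held 22.7% and 34.1% of the UMIs. Macrophage-like cluster 4, led by Arg1, Gpnmb and Spp1, had 633 and 529 cells and fewer of the UMIs in the Gsdme-KO library, 6.93%, than in the WT library, 12%. Macrophage-like cluster 7, led by Cd72, Ch25h and Cx3cr1, held 22% and 9.25%, and macrophage-like cluster 9, led by Lyve1 and Fcna among others, 11.2% and 17.2%. The markers that define each group were present in it, with limits in several groups. The endothelial-like cluster of 94 and 146 cells was led also by the adipocyte genes Cfd, Adipoq and Cidec. In the SMC-like cluster of 61 and 173 cells, fibroblast markers summed to 57822 and 34452 CPM against 7015 and 11061 CPM for smooth muscle cell markers. Macrophage-like cluster 21, with 107 cells in each library, was led by cell cycle genes such as Top2a, and neutrophil markers in it summed to 785 and 177 CPM. Platelet-like barcodes, with 1186 and 1057 UMIs at the median, had platelet markers at 34513 and 25068 CPM. Macrophage markers summed to 11418 and 12575 CPM in them and erythroid markers to 1049 and 807 CPM. In T cell-like cells, NK or innate lymphoid markers summed to 1384 and 1680 CPM against 5686 and 5615 CPM for T cell markers. Macrophage markers in monocyte-like and B cell-like cells are given below. In addition, cluster 14, led by Lyz1, Ear2 and Retnla, was left unnamed.

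The promoters of 6 of the genes described below are printed here, chosen after their values were seen. They were chosen because each holds at least 1 match of the core sequence that HIF binds, A or G followed by CGTG. RefSeq windows on GRCm38.p6, from 250 bases before to 50 bases after the start, matched 30 of the 34 genes, in 39 windows. Slc2a3, Epas1, Bnip3l and Ndrg1 had no entry. The letters ACGTG, searched on both strands, were found in 24 of the 39 windows, or 61.5%, against 19.6% of all 32851 promoter windows of the same length. GCGTG was found in 23 of the 39, or 59.0%, against 32.4% of all windows. Counted by gene, 22 of 30 had ACGTG and 20 of 30 had GCGTG. A gene with several windows has more places for a match, and the share by gene over all genes is not given. These counts by gene therefore cannot be set against the shares by window. A match of these letters is a description of the window and does not show a bound factor. In the lines below capitals mark either motif on either strand, and the palindrome CACGTG counts on both strands. The first 4 genes had their highest or second highest level in macrophage-like cluster 4, Slc16a3 in neutrophil-like cells and Adm in fibroblast-like cells.
Ldha, chr7:46845554-46845853, plus strand: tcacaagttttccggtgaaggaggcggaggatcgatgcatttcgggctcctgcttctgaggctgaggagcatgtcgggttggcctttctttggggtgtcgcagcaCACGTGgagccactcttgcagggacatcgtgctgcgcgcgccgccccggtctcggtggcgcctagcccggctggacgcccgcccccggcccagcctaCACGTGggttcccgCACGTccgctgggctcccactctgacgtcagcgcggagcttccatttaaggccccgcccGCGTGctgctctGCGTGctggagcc
Pgk1, chrX:106186850-106187149, plus strand: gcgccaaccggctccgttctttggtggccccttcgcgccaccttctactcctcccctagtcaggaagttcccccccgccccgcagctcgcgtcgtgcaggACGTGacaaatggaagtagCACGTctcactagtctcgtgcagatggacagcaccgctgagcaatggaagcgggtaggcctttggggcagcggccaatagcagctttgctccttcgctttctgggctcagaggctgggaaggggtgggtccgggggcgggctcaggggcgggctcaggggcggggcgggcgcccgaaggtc
Bnip3, chr7:138909457-138909756, minus strand: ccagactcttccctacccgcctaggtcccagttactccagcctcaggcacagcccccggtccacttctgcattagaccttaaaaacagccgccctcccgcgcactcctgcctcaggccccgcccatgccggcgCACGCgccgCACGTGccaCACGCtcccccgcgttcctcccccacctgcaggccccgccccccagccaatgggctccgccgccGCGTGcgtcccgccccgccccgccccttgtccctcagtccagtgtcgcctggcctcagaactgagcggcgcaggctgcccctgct
Egln3, chr12:54203825-54204124, minus strand: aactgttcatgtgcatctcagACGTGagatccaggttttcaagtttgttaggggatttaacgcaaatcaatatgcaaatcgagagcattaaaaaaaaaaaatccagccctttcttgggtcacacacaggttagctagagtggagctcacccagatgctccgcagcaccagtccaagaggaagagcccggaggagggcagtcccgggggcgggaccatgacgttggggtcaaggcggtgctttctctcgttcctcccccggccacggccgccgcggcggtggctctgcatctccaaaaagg
Slc16a3, chr11:120948817-120949116, plus strand: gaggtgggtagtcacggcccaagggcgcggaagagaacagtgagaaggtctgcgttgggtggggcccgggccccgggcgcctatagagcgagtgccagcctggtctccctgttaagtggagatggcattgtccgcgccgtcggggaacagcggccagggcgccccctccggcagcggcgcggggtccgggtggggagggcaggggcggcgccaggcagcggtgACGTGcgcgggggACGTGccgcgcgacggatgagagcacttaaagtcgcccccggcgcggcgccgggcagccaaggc
Adm, chr7:110627407-110627706, plus strand: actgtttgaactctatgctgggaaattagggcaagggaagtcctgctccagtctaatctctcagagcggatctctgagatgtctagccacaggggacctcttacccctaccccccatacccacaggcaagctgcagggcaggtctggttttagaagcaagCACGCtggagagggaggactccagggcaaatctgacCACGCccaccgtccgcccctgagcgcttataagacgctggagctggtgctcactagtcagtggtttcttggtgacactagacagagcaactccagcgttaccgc
In the Ldha window shown ACGTG was found 5 times, a number that only 60 of the 32851 windows, 0.183%, reached or passed, and a second Ldha window, chr7:46846832-46847131, had no match of ACGTG. Pgk1, Slc16a3 and Bnip3 had 2 matches each and Egln3 had 1. The Adm window had 2 matches of GCGTG and none of ACGTG.

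Across the 14 groups the order of levels was much the same in both libraries: 27 of the 34 genes had their highest level in the same group in each. For 13 of them that group was macrophage-like cluster 4. These 13 were Gpi1, Pfkl, Aldoa, Tpi1, Gapdh, Pgk1, Pgam1, Eno1, Pkm and Ldha, and Pdk1, Egln1 and Bnip3 of the hypoxia response. The enzymes among them include a gene for each step from glucose phosphate isomerase to lactate dehydrogenase. For phosphofructokinase that gene was Pfkl, at 39.9 and 35.1 CPM in cluster 4, while Pfkp was at 300 and 245 CPM in dendritic-like cells. Neutrophil-like cells were highest for Hk3, Pfkfb3, Pfkfb4 and Slc16a3, fibroblast-like cells for Hk2, Adm and P4ha2, and endothelial-like cells for Epas1, Ndrg1 and Ddit4. Platelet-like barcodes were highest for Slc2a3 and Bnip3l, monocyte-like cells for Hif1a and dendritic-like cells for Pfkp. For Pfkl, Pkm, Ldha, Pdk1, Egln1, Pfkfb3, Pfkfb4, Hif1a, Ddit4 and P4ha2 the highest and the next group overlapped within counting error in at least 1 library, so their place at the top is not settled at this depth.

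**Figure D1:**
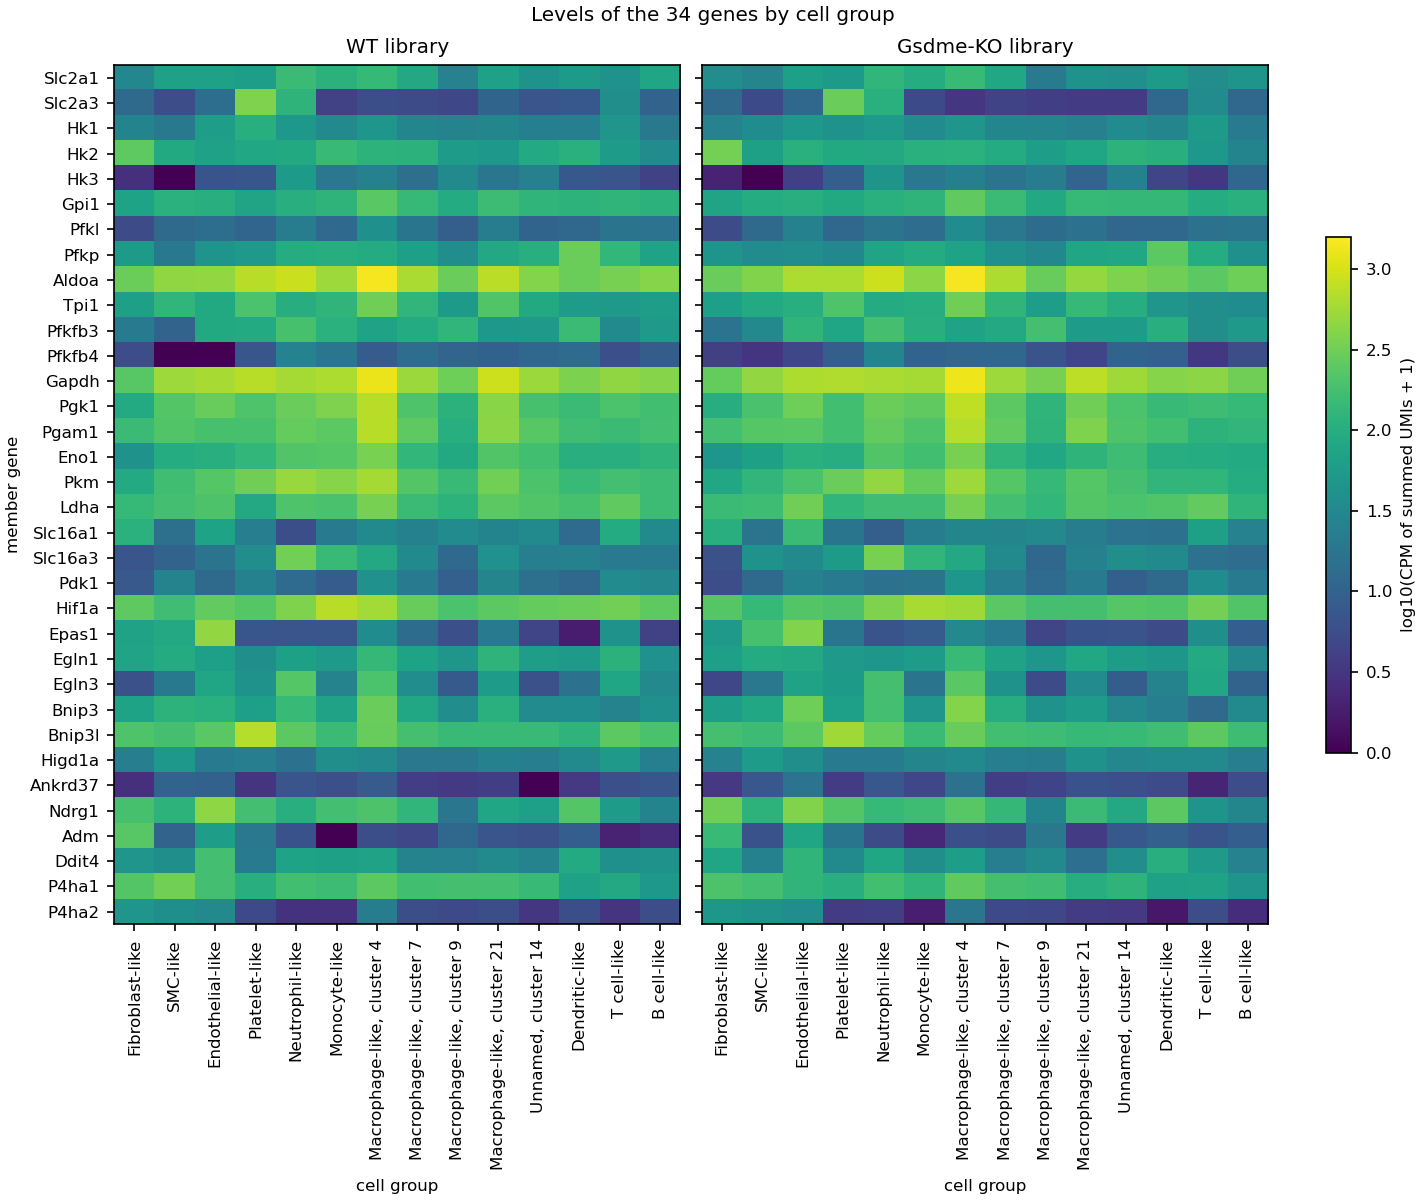
Level of each of the 34 genes (rows) in the 14 groups of cells (columns) in the WT library (left) and the Gsdme-KO library (right), as log10 of the CPM of summed UMIs plus 1. The column of macrophage-like cluster 4 is the brightest for 13 genes in both panels, and 27 genes have the same brightest column in both.

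Of the enzymes of the pathway itself, the 11 genes Gpi1, Pfkl, Pfkp, Aldoa, Tpi1, Gapdh, Pgk1, Pgam1, Eno1, Pkm and Ldha were summed to describe each group. Macrophage-like cluster 4 stood at 6152 CPM in the WT and 6123 CPM in the Gsdme-KO library, a ratio of 0.995 (0.978 to 1.01). Its level was above those of all other groups, the nearest being cluster 21 at 3782 CPM in the WT and neutrophil-like cells at 3245 CPM in the Gsdme-KO library. Fibroblast-like cells had the lowest sum, 1247 and 1309 CPM, not far below macrophage-like cluster 9 at 1358 and 1408 CPM. The macrophage clusters thus spanned the range: clusters 4, 7 and 9 stood at 6152, 2444 and 1358 CPM in the WT library. The sum differed between the libraries by a ratio of 0.762 (0.727 to 0.799) in cluster 21, 0.758 (0.694 to 0.828) in B cell-like cells and 0.807 (0.776 to 0.838) in monocyte-like cells. It was higher in the Gsdme-KO library in endothelial-like cells, at 2335 and 2699 CPM. The mouse genome holds processed copies of several of these genes, Gapdh among them, and how reads shared with such copies were counted is not stated.

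**Figure D2:**
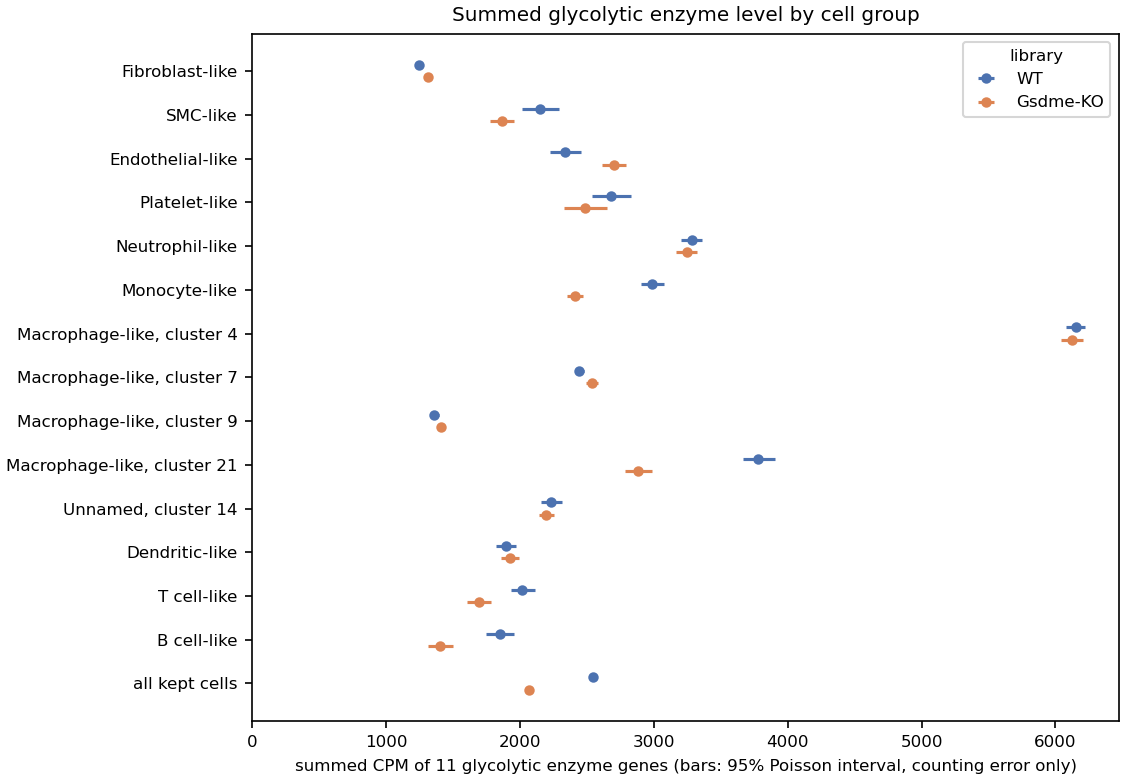
Summed CPM of the 11 glycolytic enzyme genes (x axis) in each group of cells (y axis), WT library in blue and Gsdme-KO library in orange, with 95% Poisson intervals for counting error. Macrophage-like cluster 4 sits at 6152 and 6123 CPM, and the next point is that of cluster 21 in the WT library at 3782 CPM.

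Glucose entry showed different leading cells for its 2 transporters. Slc2a1, the widespread transporter, was at 149 and 126 CPM in neutrophil-like cells and at 137 and 143 CPM in macrophage-like cluster 4, and the intervals of these 2 groups overlapped in each library. It was lowest in macrophage-like cluster 9, at 25.4 and 20.6 CPM. Slc2a3, the high-affinity transporter also known from platelets, was at 380 and 294 CPM in platelet-like barcodes and at 119 and 107 CPM in neutrophil-like cells. T cell-like cells came next, at 37.1 CPM in the WT library, so 2 groups stood above the rest for this transporter.

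Among the hexokinases, which trap glucose in the cell, Hk2 was highest in fibroblast-like cells, at 254 CPM in the WT and 342 CPM in the Gsdme-KO library, and next highest in monocyte-like cells of the WT library at 146 CPM. Hk3 was highest in neutrophil-like cells, at 54.4 and 44.5 CPM, and was at 0 UMIs in the SMC-like cluster of both libraries. Hk1 was highest in platelet-like barcodes of the WT library at 104 CPM, where the Gsdme-KO library had 43.6 CPM and T cell-like cells led at 53.9 CPM. Fibroblast-like cells therefore had the lowest sum of the later enzymes together with the highest level of Hk2.

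Pfkp, a phosphofructokinase subunit, was highest in dendritic-like cells, at 300 and 245 CPM, with T cell-like cells next at 130 and 93.7 CPM. Pfkfb3 and Pfkfb4 encode enzymes that control the level of an activator of phosphofructokinase. Pfkfb3 was at 184 and 178 CPM in neutrophil-like cells, and in macrophage-like cluster 9 it was at 128 and 177 CPM, level there with neutrophil-like cells in the Gsdme-KO library. Pfkfb4 was at 25.5 and 28.4 CPM in neutrophil-like cells and at 16.9 and 9.58 CPM in monocyte-like cells.

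For lactate, Slc16a3 (the exporter MCT4) was at 326 and 345 CPM in neutrophil-like cells, and monocyte-like cells followed at 141 and 127 CPM. Fibroblast-like cells had little Slc16a3, 6.00 and 5.29 CPM. Slc16a1 (MCT1, which carries lactate either way) showed the opposite order between these groups, at 109 and 105 CPM in fibroblast-like and 4.90 and 8.32 CPM in neutrophil-like cells. Pdk1, the kinase that keeps pyruvate out of the mitochondria, was at 40.9 and 47.3 CPM in macrophage-like cluster 4, and T cell-like cells at 34.1 and 35.1 CPM overlapped it within counting error.

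The HIF alpha subunits were split by cell type. Hif1a was at 719 and 601 CPM in monocyte-like cells and at 569 and 559 CPM in macrophage-like cluster 4, and its lowest values were 166 and 137 CPM in SMC-like cells. Epas1, the alpha subunit best known from endothelium, was at 485 and 389 CPM in endothelial-like cells and at 85.1 and 185 CPM in SMC-like cells. Fibroblast-like cells had 69.0 and 51.5 CPM of Epas1, and in neutrophil-like cells it was at 5.88 and 5.87 CPM.

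Egln1 and Egln3 encode prolyl hydroxylases that act on HIF alpha, and Egln3 is itself induced by HIF. Egln3 was at 227 and 179 CPM in neutrophil-like cells and at 197 and 240 CPM in macrophage-like cluster 4, and these were the 2 highest groups in both libraries, in either order. In macrophage-like cluster 9 it was at 7.09 and 4.35 CPM and in fibroblast-like cells at 5.21 and 3.83 CPM. Egln1 varied less, between 38.6 and 133 CPM over the groups of the WT library.

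Bnip3 and Bnip3l are mitophagy receptors. Bnip3 was at 293 and 403 CPM in macrophage-like cluster 4, with neutrophil-like cells next in the WT library at 146 CPM and endothelial-like cells next in the Gsdme-KO library at 309 CPM. Bnip3l was at 703 and 556 CPM in platelet-like barcodes, and the 13 other groups lay between 120 and 289 CPM. Higd1a, a small mitochondrial protein, stayed between 15.2 and 55.7 CPM in all groups of both libraries.

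Of the remaining hypoxia genes, Adm, which encodes the vasodilator peptide adrenomedullin, had its highest level in fibroblast-like cells, 231 and 146 CPM, with endothelial-like cells next at 60.1 and 74.3 CPM. The next groups were platelet-like barcodes at 18.3 CPM in the WT library and macrophage-like cluster 9 at 18.2 CPM in the Gsdme-KO library. Ndrg1, a stress response gene, was at 453 and 390 CPM in endothelial-like cells, followed by dendritic-like cells at 219 CPM in the WT and fibroblast-like cells at 323 CPM in the Gsdme-KO library. Ddit4, an inhibitor of mTORC1, was at 176 and 123 CPM in endothelial-like cells. The collagen prolyl hydroxylases P4ha1 and P4ha2, modify new collagen chains. P4ha1 was highest in SMC-like cells of the WT library at 326 CPM and in macrophage-like cluster 4 of the Gsdme-KO library at 259 CPM, and P4ha2 was at 45.1 and 48.3 CPM in fibroblast-like and at 37.8 and 41.8 CPM in SMC-like cells, with intervals that overlapped in each library. Ankrd37 was at most 15.5 CPM, in endothelial-like cells of the Gsdme-KO library.

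Over all kept cells, most of the genes were lower in the Gsdme-KO library. Of the 32 genes past the filter on low values (a mean of the libraries of at least 10 CPM and at least 50 UMIs in all), 24 had a ratio below 1, with the interval below 1 for 22. Their median log2 ratio was -0.20, and that of all 8710 genes past the filter was -0.07. The 11 enzymes summed to 2544 CPM in the WT and 2070 CPM in the Gsdme-KO library, a ratio of 0.814 (0.807 to 0.821). Only Egln3 was at least 1.5-fold apart, at 60.0 and 39.8 CPM with a ratio of 0.664 (0.625 to 0.704), and 3.58% of all genes were that much lower and 4.55% that much higher.

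Most of that difference was not present at equal cluster shares. When each of the 26 clusters was given the same share of the UMIs in both libraries, the median log2 ratio of the 32 genes was -0.0063 and 16 of them were below 1, while the median of all genes remained at -0.07. Egln3, highest in neutrophil-like cells and cluster 4, then stood at 49.8 and 50.8 CPM, a ratio of 1.02. Pgk1 went from a ratio of 0.823 to 1.04 and Slc16a3 from 0.782 to 1.00. Adm went the other way: its level over all cells was 59.2 and 59.3 CPM, and at equal shares it was 73.7 and 49.6 CPM, a ratio of 0.673. Ndrg1 kept a ratio above 1, 1.42 over all cells and 1.35 at equal shares.

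**Figure D3:**
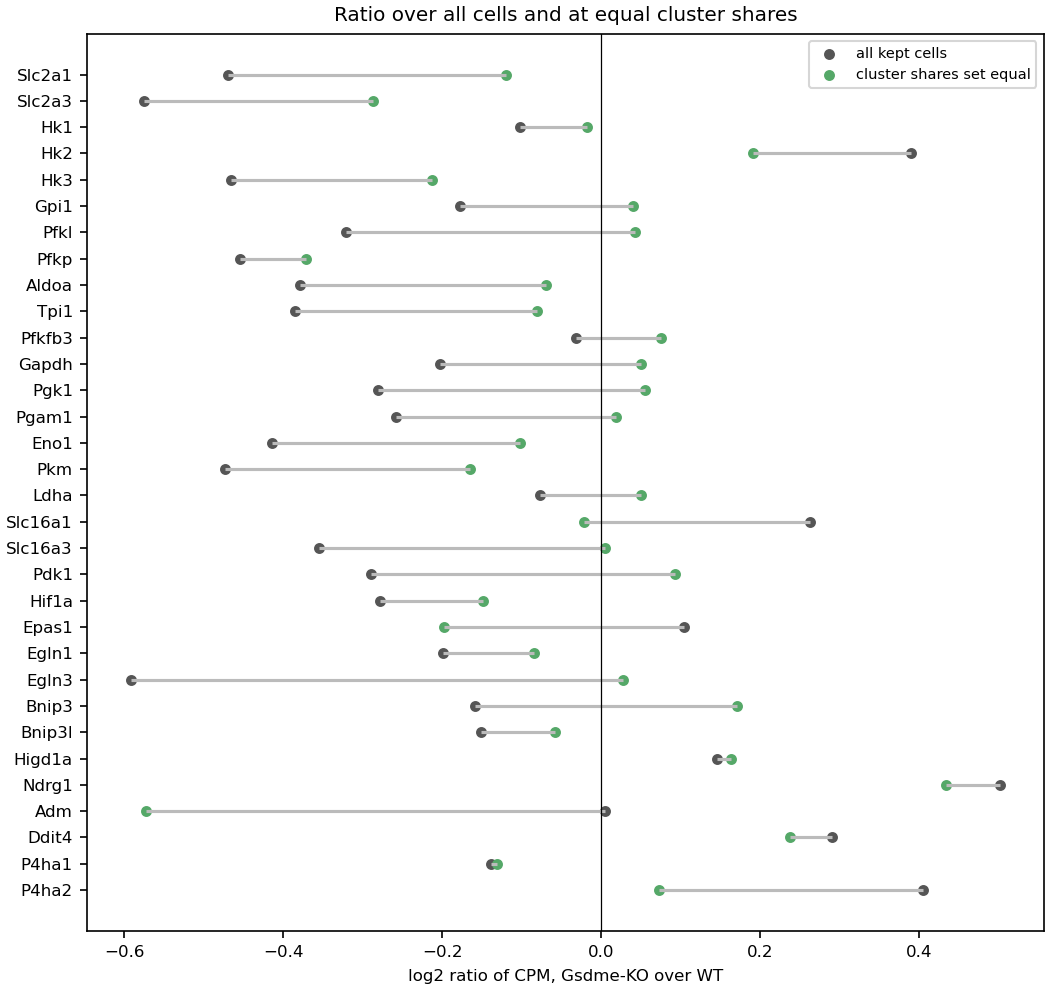
Log2 ratio of CPM, Gsdme-KO over WT, for the 32 genes past the low-value filter (y axis), over all kept cells (dark points) and with each cluster given the same share of UMIs in both libraries (green points). At equal shares 16 of the 32 points lie below 0, against 24 over all cells; Adm is the gene that moves furthest to the left.

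Within the 14 groups, 354 of the 490 pairs of identifier and group passed the filter. In 20 pairs, 5.65%, the gene was at least 1.5-fold higher in the Gsdme-KO library, and in 22 pairs, 6.21%, at least 1.5-fold lower. Over all genes, 5.54% and 7.27% of 87510 such pairs were past the same fold, so the shares for these genes were close to the background. Every gene passed the filter in at least 1 group and 12 passed in every group. Never past the fold where they passed were 12 genes: Slc2a3, Hk3, Gpi1, Aldoa, Pfkfb3, Gapdh, Pgk1, Pgam1, Hif1a, Egln1, Bnip3l and P4ha2. Of the 42 pairs past the fold, 7 were past it under every alternative processing that was run: Ndrg1 in fibroblast-like cells, Higd1a in endothelial-like cells, Hk1 in platelet-like barcodes, P4ha1 in SMC-like cells, and Egln3, Ndrg1 and P4ha1 in macrophage-like cluster 21.

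**Figure D4:**
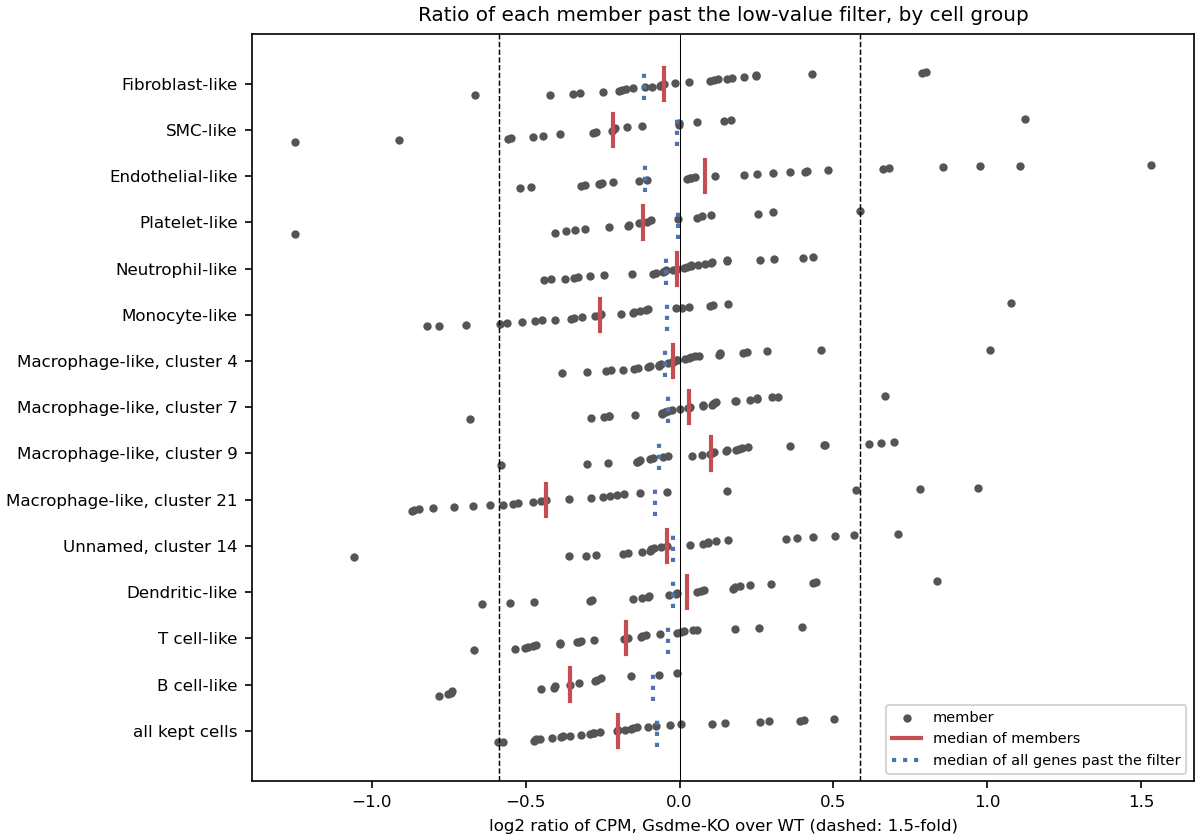
Log2 ratio of CPM, Gsdme-KO over WT, of each gene past the low-value filter (grey points) in each group of cells, with the median of these genes (red line) and of all genes past the filter (blue dotted line); dashed lines mark a 1.5-fold difference. The medians of these genes lie furthest below 0 in cluster 21 and B cell-like cells, and 312 of the 354 points of the 14 groups lie between the dashed lines.

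Fibroblast-like cells held the differences past the fold with the most UMIs behind them. Of 27 genes past the filter, Ndrg1 and Ddit4 were at least 1.5-fold higher in the Gsdme-KO library, where 3.27% of all genes were, and Adm was at least 1.5-fold lower, where 7.47% were. Ndrg1 (chr15:66929318-66969640, minus strand, mm10) was at 185 CPM in the WT and 323 CPM in the Gsdme-KO library, from 1638 and 5743 UMIs, a ratio of 1.74 (1.65 to 1.84). Ddit4 (chr10:59949669-59951834, minus strand) was at 45.2 and 78.0 CPM, a ratio of 1.73 (1.54 to 1.94). Adm (chr7:110627661-110629820, plus strand) was at 231 and 146 CPM, a ratio of 0.630 (0.595 to 0.668).

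The clusters of fibroblast-like cells did not all show these ratios alike. Cluster 0, led by C7 and Mmp3, had 150 and 311 CPM of Ndrg1, a ratio of 2.08, and cluster 2, led by Sema3c, had 231 and 356 CPM, a ratio of 1.54. Cluster 18, with 90 and 83 cells, had 188 and 182 CPM, and its interval held 1. Ddit4 had ratios of 2.20 in cluster 0 and 1.46 in cluster 2, and in cluster 18 it was at 74.5 and 93.2 CPM with an interval that held 1. Adm was lower in the Gsdme-KO library in all 3, at 215 and 148 CPM in cluster 0. Cluster 2 had 273 and 156 CPM and cluster 18 had 159 and 45.0 CPM.

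**Figure D5:**
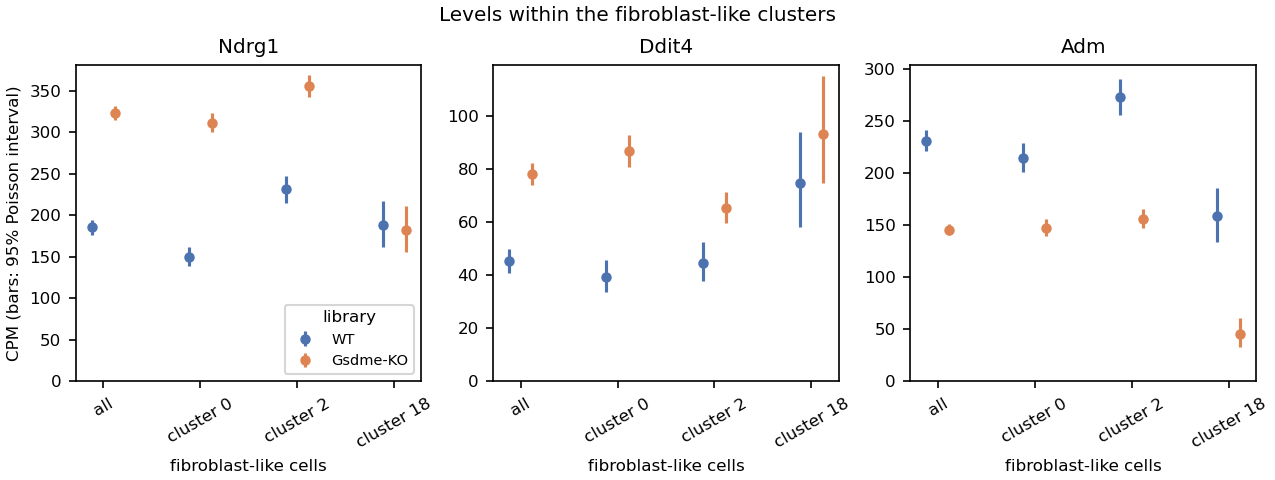
CPM of Ndrg1, Ddit4 and Adm (y axes, each from 0) in all fibroblast-like cells and in clusters 0, 2 and 18, WT library in blue and Gsdme-KO library in orange, with 95% Poisson intervals for counting error. Adm is lower in the Gsdme-KO library in each cluster, and Ndrg1 is higher in clusters 0 and 2 and level in cluster 18.

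Ndrg1 and Adm also differed in the share of cells at equal depth. After each cell was thinned to 1000 UMIs, 13.8% of 949 fibroblast-like cells of the WT library had a UMI of Ndrg1 against 22.3% of 1519 in the Gsdme-KO library, and the shares for Adm were 17.3% and 11.4%. For Ddit4 they were 3.69% (2.58% to 5.09%) and 5.99% (4.85% to 7.30%), so its intervals overlapped. Without thinning the shares were 56.8% and 73.2% for Ndrg1 and 50.6% and 44.2% for Adm, at median depths of 8481 and 10333 UMIs. In monocyte-like cells, which had 4640 and 5234 UMIs at the median, Adm was found in 0 of 345 and 3 of 425 cells, so the fibroblast-like shares were far above that level. Macrophage markers moved with the library in these cells: all 22 were above 0 in both libraries and summed to 1782 CPM in the WT and 958 CPM in the Gsdme-KO library. Among fibroblast-like cells with under 3 macrophage markers, 18.3% of the WT and 38.0% of the Gsdme-KO cells, the ratios were 2.08 for Ndrg1, 1.41 for Ddit4 and 0.682 for Adm, so that Ddit4 and Adm came inside the fold. The scale of this group matters as well, because scaling by TMM factors raises every log2 ratio by 0.13 in the fibroblast-like group and 0.12 in the endothelial-like one, and Adm then had a ratio of 0.688.

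The sum of the 11 enzymes in fibroblast-like cells had a ratio of 1.09 in cluster 0 and 1.05 in cluster 2. In cluster 18 it was lower in the Gsdme-KO library, at 1373 and 1164 CPM, a ratio of 0.848 (0.781 to 0.919), with Pgk1 at 0.588 and Pkm at 0.619 there. Of 24 genes past the filter in cluster 18, 6 were at least 1.5-fold lower and 2 higher, a hexokinase at 1.53 and a mitochondrial hypoxia gene at 1.55. The share over all genes past the fold is not given for this cluster, so these counts cannot be set against a background. The median log2 ratio of the 24 genes was -0.15 beside -0.04 for all 5330 genes. Hif1a in cluster 18 was at 383 and 218 CPM, a ratio of 0.570 (0.478 to 0.678). In fibroblast-like cells as a whole Hk2 was higher in the Gsdme-KO library at a ratio of 1.35 (1.28 to 1.41), within the fold, and both HIF alpha subunits were slightly lower, with ratios of 0.886 (0.841 to 0.933) for Hif1a and 0.747 (0.674 to 0.829) for Epas1.

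Other genes of the hypoxia response in the same cells were also higher and lower in turn. Of 35 listed, 26 passed the filter, 3 were at least 1.5-fold higher and 4 lower in the Gsdme-KO library, and their median log2 ratio was -0.14 beside -0.12 for all genes. Vegfa, the growth factor of endothelium, was at 153 and 241 CPM, a ratio of 1.58 (1.49 to 1.68). Hilpda, a lipid droplet protein, was at 29.6 and 51.8 CPM, a ratio of 1.75 (1.53 to 2.02). Lower were Cxcr4, a chemokine receptor, at a ratio of 0.475, Vldlr, a lipoprotein receptor, at 0.589, and Hmox1, which degrades heme, at 371 and 228 CPM with a ratio of 0.616. The macrophage markers given above for these cells, 1782 and 958 CPM, were lower as well, and their part in these 3 ratios was not tested. Of 30 other genes of glycolysis, 13 passed and 1 was past the fold: Pdk4, a kinase of the pyruvate dehydrogenase complex like Pdk1, at a ratio of 0.589.

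Monocyte-like cells, 345 in the WT and 425 in the Gsdme-KO library, had lower values in the Gsdme-KO library for most of the genes described here. Of 28 genes past the filter, 22 had a ratio below 1, 13 with the interval below 1, and the median log2 ratio was -0.26 beside -0.04 for all genes. The other genes of glycolysis did not share this: 10 passed, 5 above and 5 below 1, with a median of -0.001. Of the other hypoxia genes 20 passed, 15 of them below 1, with a median of -0.23. Only 1 gene was at least 1.5-fold higher, where 6.79% of all genes were, and 3 were lower, where 8.02% were. All 5 genes of the later steps of the pathway, from Gapdh to Pkm, were lower in the Gsdme-KO library and inside the fold. Pkm, the last enzyme before pyruvate, was at 411 and 274 CPM, a ratio of 0.667 (0.598 to 0.745) just short of the fold, and Pgk1 at 375 and 263 CPM, a ratio of 0.701.

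Past the fold in monocyte-like cells were Ddit4, at 64.5 and 37.5 CPM with a ratio of 0.581 (0.433 to 0.779), and Egln3, at 26.3 and 16.2 CPM with a ratio of 0.618 (0.389 to 0.979). Pfkfb4 had a ratio of 0.567 from 27 and 23 UMIs, with an interval that held 1. Pdk1 was higher at 7.51 and 15.8 CPM, from 12 and 38 UMIs, a ratio of 2.11 (1.08 to 4.43). Egln3 was above 1 under 4 alternatives, given among the results that depend on the processing. Of the other hypoxia genes, Vegfa was at 667 and 345 CPM, a ratio of 0.517 (0.472 to 0.567), and Bhlhe40, a transcriptional repressor, at a ratio of 0.645.

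The 22 macrophage markers summed to 5995 CPM in the WT and 9327 CPM in the Gsdme-KO monocyte-like cells, with none at 0. Among cells with under 6 of them, 40.6% of the WT and 30.6% of the Gsdme-KO cells, the median log2 ratio of the members past the filter was -0.05. The ratio of Ddit4 in those cells was 0.504 and that of Egln3 0.410.

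Macrophage-like cluster 4, the group with the highest glycolytic levels, had few genes apart between the libraries. Of 31 genes past the filter, 1 was at least 1.5-fold higher, where 2.49% of all genes were, and none lower, where 3.75% were. The 1 gene was Ankrd37, an ankyrin repeat gene induced by hypoxia, at 7.29 and 14.7 CPM with a ratio of 2.01 (1.28 to 3.19). Inside the fold, Bnip3 was at 293 and 403 CPM, a ratio of 1.37 (1.27 to 1.48), and Egln3 at 197 and 240 CPM, a ratio of 1.22 (1.11 to 1.34). The median log2 ratio was -0.02.

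In macrophage-like cluster 7, Pfkp was at 62.7 and 39.1 CPM, a ratio of 0.624 (0.526 to 0.738), and Epas1 at 12.5 and 19.9 CPM, a ratio of 1.59 (1.19 to 2.11). These were 2 of 30 genes past the filter, and 2.25% of all genes were at least 1.5-fold lower and 2.29% higher. In macrophage-like cluster 9, 3 of 28 genes were higher, where 2.48% of all genes were, and none lower, where 3.61% were. They were Adm at 11.2 and 18.2 CPM with a ratio of 1.62 (1.17 to 2.28), Ndrg1 at 17.2 and 27.0 CPM with a ratio of 1.57, and Pfkl at 8.24 and 12.6 CPM with a ratio of 1.53. All 3 were low in this cluster compared with their highest group.

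Cluster 21, the macrophage-like cells led by cell cycle genes, had the lowest median of these genes, at -0.43 on the log2 scale beside -0.08 for all genes. Of 25 genes past the filter, 7 were at least 1.5-fold lower in the Gsdme-KO library, where 11% of all genes were, and 2 were higher, where 6.74% were. Eno1, an enolase, was at 216 and 119 CPM, a ratio of 0.550 (0.439 to 0.686), P4ha1 at 174 and 96.8 CPM, a ratio of 0.556 (0.433 to 0.711), and Bnip3 at 106 and 57.9 CPM, a ratio of 0.547 (0.395 to 0.753). Egln3, Slc2a1, Tpi1 and Slc16a3 had ratios of 0.574, 0.628, 0.653 and 0.602, and the interval of Slc16a3 held 1. Higher were Ndrg1, at 77.2 and 151 CPM with a ratio of 1.96 (1.49 to 2.60), and Higd1a at a ratio of 1.72 (1.04 to 2.92). Ndrg1 and Higd1a thus lay on the other side of 1 from most genes of this cluster. The neutrophil markers given above for this cluster, 785 and 177 CPM, moved in the same direction as the genes that were lower, and their part in these ratios was not tested.

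B cell-like cells had 15 genes past the filter, all 15 with a ratio below 1 and 6 with the interval below 1. The median log2 ratio was -0.36 beside -0.09 for all genes. Slc2a1, Pfkp, Tpi1 and Pkm were at least 1.5-fold lower, where 12.4% of all genes were, and none was higher, where 8.23% were. Pkm was at 157 and 93.9 CPM from 101 and 59 UMIs, a ratio of 0.599 (0.427 to 0.834). After thinning to 1000 UMIs, Slc2a1 and Tpi1 were above 1 in these cells, at 1.48 and 1.67. Macrophage markers in these cells moved the other way, at 3987 and 7012 CPM. T cell-like cells had 26 genes past the filter, 19 with a ratio below 1, and only Higd1a past the fold, at 0.629 with an interval that held 1. In T cell-like cells 7.46% of all genes were at least 1.5-fold lower and 5.01% higher.

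Endothelial-like cells had 6 genes at least 1.5-fold higher of 28 past the filter, where 9.51% of all genes were, and none lower, where 12.4% were. Bnip3 was at 107 and 309 CPM, a ratio of 2.89 (2.25 to 3.76), and Slc16a1 at 70.4 and 152 CPM, a ratio of 2.15 (1.56 to 3.02). Ldha was at 199 and 320 CPM, a ratio of 1.60 (1.32 to 1.96), and Hk2 at 67.5 and 107 CPM, a ratio of 1.58 (1.13 to 2.26). The ratios of Slc16a3, 1.97, and Higd1a, 1.81, had intervals that held 1. After thinning Ldha was at 0.911 and Slc16a3 at 0.233. Of 30 other glycolysis genes 10 passed and 7 of these were higher, with a median log2 ratio of 0.86. They included Mpc1 and Mpc2, the mitochondrial pyruvate carrier, at ratios of 4.31 and 2.82, and the pyruvate dehydrogenase kinase Pdk2 at 8.97 from 5 and 85 UMIs.

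The 5 adipocyte markers in the endothelial-like cluster summed to 494 CPM in the WT and 1930 CPM in the Gsdme-KO library, and 1 of them was at 0 in the WT library. B cell markers summed to 117 and 1548 CPM there and erythroid markers to 804 and 7.74 CPM. Among cells with no UMI of an adipocyte marker, 89.4% of the WT and 69.9% of the Gsdme-KO cells, Bnip3 had a ratio of 1.16, Slc16a1 0.474, Ldha 1.28 and Hk2 0.715. None of the 4 was then 1.5-fold higher in the Gsdme-KO library. In the whole cluster endothelial markers summed to 6845 and 4979 CPM and pericyte markers to 1075 and 1100 CPM. The HIF subunit Epas1 had a ratio of 0.802 in the whole cluster, and the part of these markers in it was not tested.

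Neutrophil-like cells, high for Slc2a1, Hk3, Pfkfb3, Slc16a3 and Egln3, had no gene past the fold among 29 past the filter. Of all genes, 5.65% were at least 1.5-fold higher and 6.54% lower there. Slc16a3 was at 326 and 345 CPM and Pfkfb3 at 184 and 178 CPM, and Vegfa, of the other hypoxia genes, was at 512 and 274 CPM, a ratio of 0.535 (0.482 to 0.594). The 2 clusters behind this group were not alike. In cluster 5, with 168 and 243 cells, the median log2 ratio was -0.24 beside -0.02 for all genes, and the 11 enzymes summed to 3672 and 3251 CPM, a ratio of 0.885 (0.816 to 0.961). Pgam1 and P4ha1 had ratios of 0.607 (0.435 to 0.843) and 0.571 (0.358 to 0.904) there. In the larger cluster 6 the median was 0.06 and the enzymes summed to 3215 and 3243 CPM.

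The remaining groups had few genes past the fold. In platelet-like barcodes Hk1 was at 104 and 43.6 CPM, from 51 and 16 UMIs, a ratio of 0.421 (0.224 to 0.750), and Ldha was at 85.4 and 128 CPM with an interval that held 1. Ldha was at a ratio of 0.758 at Leiden resolution 0.5 and 0.837 after thinning. Of all genes in these barcodes 9.22% were at least 1.5-fold lower and 8.32% higher. In dendritic-like cells Egln3 was at 14.6 and 26.1 CPM, a ratio of 1.78 (1.01 to 3.29), and Bnip3 at 34.9 and 22.4 CPM with an interval that held 1, where 6.44% of all genes were higher and 8.48% lower. The ratio of Egln3 in dendritic-like cells was 0.324 after thinning and 0.978 with every cell weighted alike, so its direction was not stable. The thinned ratio rests on fewer UMIs, and its counting interval is not given.

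SMC-like cells had Epas1 at 85.1 and 185 CPM, a ratio of 2.18 (1.51 to 3.21). P4ha1 was at 326 and 174 CPM, a ratio of 0.532 (0.421 to 0.672), and Slc2a1 at 66.2 and 27.9 CPM, a ratio of 0.421 from 28 and 26 UMIs. That of Slc2a1 was 1.86 after thinning and 1.29 with every cell weighted alike. Of all genes in that cluster 11.4% were higher and 9.66% lower by the fold. The fibroblast markers given above were lower in its Gsdme-KO cells, and their part in the ratio of P4ha1, a collagen-modifying enzyme, was not tested. Smooth muscle cell markers, also given above, were higher in its Gsdme-KO cells, as were pericyte markers, at 1750 and 2880 CPM. Their part in the ratio of Epas1 was not tested. In the unnamed cluster 14 the lactate transporters went in opposite directions. Slc16a1 was at 32.8 and 15.7 CPM, a ratio of 0.480 (0.305 to 0.754), and Slc16a3 at 22.4 and 36.6 CPM, a ratio of 1.64 (1.07 to 2.56), where 5.42% of all genes were lower and 5.81% higher. With at most 10% mitochondrial UMIs these ratios were 1.11 and 0.801, so neither direction held there.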

How the data were processed

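The deposited values are raw counts, whole numbers for each gene and barcode, 1 matrix per library. They are called UMIs here from the platform and STARsolo, as no label names the unit. The submitters' processing notes list the tools CASAVA 1.8 and STARsolo and the genome build mm10, and give no gene annotation. No barcode had under 500 UMIs.

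A cell needed 500 UMIs and 250 genes, with mitochondrial UMIs not above 25%. Scrublet marked 0 WT and 1 Gsdme-KO cells, so doublets were not removed by it and remain in the data. With scanpy 1.11.5, cells were scaled to 10000 UMIs and log-transformed, 2000 variable genes were chosen without the 34 genes and the lists of other pathway genes, and 30 principal components, 15 neighbours and Leiden resolution 1 were used. Naming used 20 marker lists, and a name needed 3 markers seen in 25% of a cluster's cells. Clusters led by genes of another class stayed unnamed, as did shallow clusters with no marker of their own class among their leading genes. Platelet-like cluster 17 was shallow as well and was named, because platelet markers were among its leading genes.

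UMIs were summed per group and library and given as CPM, with exact Poisson intervals for levels, exact conditional binomial intervals for ratios and Clopper-Pearson intervals for shares, all at 95% (scipy 1.17.1). With 1 library per group no test was made. The low-value filter was a mean of at least 10 CPM and at least 50 UMIs over both libraries. In a simulation with known ratios the intervals held the true value for 95.1% of 8352 genes in fibroblast-like and 96.1% of 6154 genes in endothelial-like cells. In the same simulation 99% and 59% of genes changed 1.5-fold had intervals on the right side of 1. Differences between animals or libraries could not enter it, as each group has 1 library, so these shares are no check of the ratios between genotypes. Alternatives changed the cell filters, doublet handling, clustering, scaling (TMM of edgeR 4.0.16, or size factors), weighting, depth, low-value filter and fold.

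All 34 genes are accounted for. Ratios are given for genes at least 1.5-fold apart, up to 6 each way per group ordered by the interval end nearest 1, and for other pathway genes up to 3 each way, except 1 gene that is not reported here. Levels are given where the highest group was at least 3 times the level over all cells. A few further values were added after they were seen: those just inside the fold in fibroblast-like cells, monocyte-like cells and cluster 4, and levels of transporters, HIF subunits and collagen hydroxylases. The genes and lists were chosen with earlier results of these data known. The unnamed clusters 1, 8, 10, 12 and 20, which were shallow, were not compared on their own, and cluster 14, which was not shallow, was. Groups of under 50 cells in a library were left out: plasma-type B cells, and lymphatic endothelial-like, mast or basophil-like and mesothelial-like cells.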

Additional observations from a re-analysis of the deposited data

Results flagged for a closer look

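Several genes were past the 1.5-fold difference in opposite directions in different groups of cells, each with an interval off 1. In every case the difference between the groups was not tested, because each group rests on 1 library per genotype. Adm had a ratio, Gsdme-KO over WT, of 0.630 in fibroblast-like cells and 1.62 in macrophage-like cluster 9. Ddit4 had 1.73 in fibroblast-like and 0.581 in monocyte-like cells. Bnip3 had 2.89 in endothelial-like cells and 0.547 in macrophage-like cluster 21, and 1.16 in endothelial-like cells without adipocyte marker UMIs. Slc16a1 had 2.15 in endothelial-like cells and 0.480 in the unnamed cluster 14. Without adipocyte marker UMIs it was 0.474 in endothelial-like cells, and with at most 10% mitochondrial UMIs it was 0.701 there and 1.11 in cluster 14, where thinning gave 1.10. Egln3 had 1.78 in dendritic-like cells, 0.618 in monocyte-like cells and 0.574 in macrophage-like cluster 21, from 18 and 42, 42 and 39, and 59 and 37 UMIs in the WT and Gsdme-KO libraries. In dendritic-like cells Egln3 was 0.324 after thinning and 0.978 with every cell weighted alike, and in monocyte-like cells it lay between 1.08 and 1.33 under 4 alternatives.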

How the results depend on the processing

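Of 165 medians recomputed under an alternative, 156 stayed within the counting interval of the gene or genes at the median and 9 did not, and of 471 ratios of named genes 408 stayed within their interval. The median log2 ratio moved to -0.052 in monocyte-like cells with under 6 macrophage markers, to -0.19 in neutrophil-like cells at Leiden resolution 0.5 and again to -0.19 with at most 10% mitochondrial UMIs, and to -0.10 in macrophage-like cluster 7 with at least 1000 UMIs per cell. With cells thinned to 1000 UMIs it was -0.026 in B cell-like and -0.17 in endothelial-like cells. Over all cells it was -0.14 with TMM factors, -0.14 with size factors and -0.0063 at equal cluster shares. The 20 pairs higher and 22 lower became 6 and 14 after thinning, 41 and 56 with no filter, 40 and 74 at a smaller fold, and 5 and 3 at a fold of 2, where fewer cells, more genes or another fold enter by construction. The shares over all genes under these settings are not given here, so these counts cannot be set against a background. Among ratios with an interval off 1, thinning moved the ratio across 1 for Ankrd37 in cluster 4 (0.987), Slc2a1 in B cell-like (1.48), SMC-like (1.86) and cluster 21 cells (1.04), Egln3 in dendritic-like cells (0.324), Ldha in endothelial-like cells (0.911) and Slc16a1 in cluster 14 (1.10). Weighting every cell alike gave 0.978 for Egln3 in dendritic-like, 0.943 for Hk2 in endothelial-like, 1.29 for Slc2a1 in SMC-like and 0.841 for Slc16a3 in cluster 14 cells. With at most 10% mitochondrial UMIs, Hk2 was 0.780 and Slc16a1 0.701 in endothelial-like cells, and Slc16a1 was 1.11 and Slc16a3 0.801 in cluster 14. Without cells holding adipocyte marker UMIs, an alternative chosen after seeing the data like those on macrophage markers, Hk2 was 0.715 and Slc16a1 0.474 in endothelial-like cells. Egln3 in monocyte-like cells was 1.23 at resolution 0.5, 1.33 with the pathway genes in the clustering, 1.29 with at least 1000 UMIs per cell and 1.08 without the highest doublet scores. Among ratios whose interval held 1, thinning gave 1.67 for Tpi1 in B cell-like cells, 0.233 for Slc16a3 in endothelial-like cells, 1.56 for Slc16a3 in cluster 21 and 0.837 for Ldha in platelet-like barcodes. Weighting cells alike gave 0.968 for Slc16a3 in endothelial-like cells, and resolution 0.5 gave 0.758 for Ldha in platelet-like barcodes. Thinned ratios rest on fewer UMIs than the main ones and are given without counting intervals. The cause of these changes was not tested. No paired analysis was possible because each group has 1 library. At this depth a 1.5-fold difference in the smaller groups often cannot be told from counting error.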

Other observations

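Other hypoxia genes also stood apart in groups not described for them above. Plod2, a collagen lysyl hydroxylase, was at 92.9 and 181 CPM over all cells, a ratio of 1.95 (1.88 to 2.03), and at 407 and 267 CPM in SMC-like cells, a ratio of 0.656. Over all cells 4.55% of all genes were at least 1.5-fold higher. Fibroblast-like cells held 22.7% of the UMIs in the WT and 34.1% in the Gsdme-KO library, and the ratio of Plod2 at equal cluster shares is not given here. Hmox1 was lower in the Gsdme-KO library in T cell-like cells (0.475), platelet-like barcodes (0.510), endothelial-like cells (0.551), SMC-like cells (0.556), B cell-like cells (0.616) and cluster 21 (0.619), as it was in fibroblast-like cells. Ero1l, an oxidase of the endoplasmic reticulum, was at 65.0 and 199 CPM in platelet-like barcodes and at 179 and 94.4 CPM in endothelial-like cells. The immediate early genes, which respond to handling of tissue, are given for 2 of the 14 groups, chosen after the values were seen. They had 6 of 19 genes at least 1.5-fold higher in the Gsdme-KO library and none lower in B cell-like cells, where 8.23% of all genes were higher and 12.4% lower. In SMC-like cells 1 of 19 was higher and 8 lower, where 11.4% of all genes were higher and 9.66% lower. In each of the other 12 groups at most 3 were past the fold in either direction.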
